A study of Mus musculus with 16 samples.

Results

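The genes described here encode the proteins of the cytosolic ribosome. They were chosen by name and by level: a row was taken where its symbol has the form of a ribosomal protein gene (Rpl, Rps or Rplp and a number, or Rpsa), is not marked as a pseudogene, and averaged 1 FPKM or more across all 16 libraries. FPKM counts sequenced fragments relative to transcript length and to the library's mapped total, so it is a level per length. Of 23847 rows in the deposited table, 84 had such a name and 81 reached the minimum, against 11097 rows of any name that did so. By name, the 81 members were 33 genes of the small 40S subunit, 45 of the large 60S subunit and the 3 of the P stalk, Rplp0, Rplp1 and Rplp2. Among the 33 is Rps4y2, which is annotated as a pseudogene. Because the members were selected on their mean FPKM, their high level is not a finding. Just inside the minimum were Rps27 at 5.29, Rps4y2 at 16.7 and Rpl34 at 18.3 mean FPKM, and just outside it were Rpl39l at 0.373, Rpl10l at 0.0465 and Rpl3l at 0.0103 mean FPKM.

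RNA was sequenced from small intestinal organoids, epithelial cultures that grow from isolated crypts, of the mouse strain C57BL/6 at day 3 of culture. The 4 groups held 4 libraries each: Atg16L1 dIEC organoids with TNF, Atg16L1 f/f organoids with TNF, Atg16L1 dIEC organoids without it and Atg16L1 f/f organoids without it. The f/f organoids carry the floxed allele and serve as wild type, the dIEC organoids are the ATG16L1-deficient ones, and TNF was the murine cytokine at 20 ng/ml for 2 hours. ATG16L1 is a part of the autophagy machinery, and the study asked how organoids with and without it differ at rest and under TNF. No source used here names the promoter behind the deletion or the number of animals or cultures, so a p-value speaks only of the variation among these libraries, which may be technical.

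A ribosome holds a single copy of nearly every one of these proteins, so cells make their mRNAs at similar, very high levels. The mRNAs typically begin with a 5′ terminal oligopyrimidine (TOP) tract, a C followed by a run of C and T, through which mTOR signalling and the RNA-binding protein LARP1 control their translation and stability. Ribosome biogenesis is high in the dividing cells of intestinal crypts, and free RPL5 and RPL11 bind MDM2 and stabilise p53 when ribosome assembly is disturbed.

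Members were spread over 19 chromosomes, with 14 on chromosome 7. All 81 had a transcript in GENCODE vM21. The symbol Rps4y2 belongs to the gene now named Rps4l, which has 1 exon on chromosome 6 and is annotated as a transcribed processed pseudogene. The other 80 had coding sequences of 75 to 1257 bases, with a median of 454.5. Near-identical copies are common in this family: 76 members had at least 1 other gene matching at least 95% of the bases over at least 90% of the coding sequence, and 1 had 56 of them. No source used here tells how reads shared between such copies were divided. Of the 81, 60 could be matched to RefSeq windows around an annotated start, and 29 of those 60 (48.3%) held a pyrimidine tract. A tract was a C followed by C or T for at least 5 bases in all, beginning within 5 bases of the start, on the gene's strand. The same search found one in 1891 of 8126 other genes at 1 FPKM or more (23.3%) and in 5718 of all 27025 genes with a window (21.2%). The windows below come from RefSeq on GRCm38.p6, run 5′ to 3′ for 15 bases before and 15 bases from the annotated start, and have the tract in capitals. Each window shown holds a tract, so the choice does not tell how common tracts are among members that fell. The windows of Rpl26 (log2 TNF change of -0.57 in f/f), Rpl36a (-0.47 in dIEC) and Rps3a1 (-0.39 in both genotypes) held none. Those shown set some members with large TNF falls beside 2 members not called in either genotype and 1 with a smaller change: Rpl39 (chrX:37085208-37085237, minus strand), Rpl22l1 (chr3:28805493-28805522, plus strand) and Rps27l (chr9:66946071-66946100, plus strand) against Rplp2 (chr7:141447636-141447665, plus strand) and Rpl28 (chr7:4792950-4792979, plus strand), and then Rps6 (chr4:86857353-86857382, minus strand), whose protein is the classical target of S6 kinase and which was called lower in f/f only.
Rpl39: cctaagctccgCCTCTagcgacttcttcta
Rpl22l1: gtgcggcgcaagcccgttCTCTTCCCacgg
Rps27l: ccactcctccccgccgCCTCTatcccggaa
Rplp2: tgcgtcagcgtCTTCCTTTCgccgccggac
Rpl28: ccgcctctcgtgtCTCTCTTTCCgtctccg
Rps6: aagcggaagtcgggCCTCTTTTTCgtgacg

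The tracts had 5 bases at Rpl39, 8 at Rpl22l1, 5 at Rps27l, 9 at Rplp2, 10 at Rpl28 and 10 at Rps6. Among the members with a window, TNF-treated organoids of the dIEC genotype had 8 of 29 with a tract and 11 of 31 without one called lower, and those of the f/f genotype had 10 of 29 and 15 of 31. The median log2 TNF change in dIEC organoids was -0.16 with and -0.17 without a tract, and in f/f organoids -0.22 with and -0.22 without one. A match describes the letters of the window and no site in use.

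Most members were abundant. Of the 81 members, 57 averaged at least 1000 FPKM and 5 less than 100, with a median of 1342. Rps12, a 40S protein, was highest at 3603, followed by Rpl39, a small protein of the nascent chain exit tunnel, at 3136, Rpl41, which encodes the smallest ribosomal protein, at 2998, and Rpl32 at 2929 mean FPKM. In each library 46 to 61 of its 100 strongest genes were members. The genes Fau, Gnb2l1 and Rpl36al, which carry ribosomal proteins under other names, fall outside the name rule and are given apart.

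Together the members took up 17.7 to 22.6% of all FPKM, and this share overlapped between the groups. It was 19.6, 20.3, 20.3 and 17.7% of the summed FPKM in the dIEC TNF libraries, against 21.3, 20.6, 22.6 and 18.2% in the dIEC libraries. It was 17.9, 21.8, 19.3 and 19.7% in the f/f TNF libraries, against 21.3, 21.7, 21.7 and 20.9% in the f/f libraries. The lowest values stood in library 4 of both dIEC groups and in library 1 of f/f TNF, and the range of f/f TNF ran through that of f/f. Means were 19.5 ± 1.25% in dIEC TNF, 19.7 ± 1.62% in f/f TNF, 20.7 ± 1.82% in dIEC and 21.4 ± 0.399% in f/f (SD, n = 4 each). The split between subunits was alike, with 8.69, 8.79, 9.26 and 9.58% in 40S genes and 10.8, 10.9, 11.4 and 11.8% in 60S and P stalk genes in the same order of groups.

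**Figure D1:**
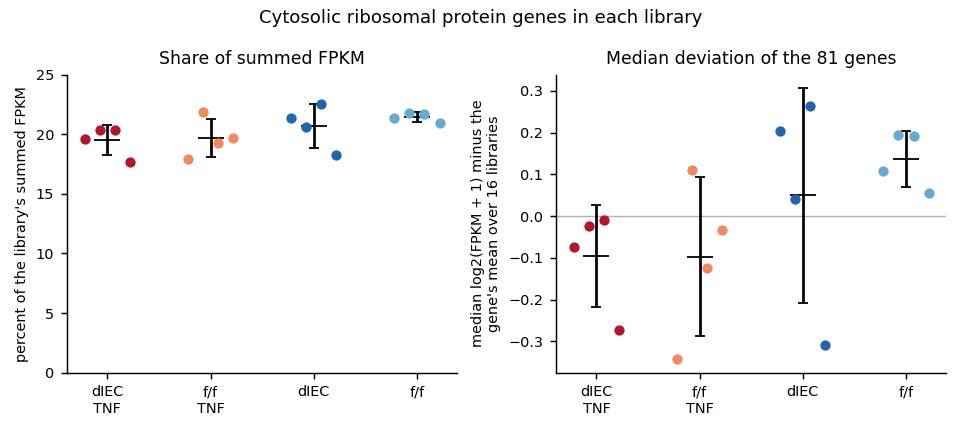
Left, percent of each library's summed FPKM held by the 81 members; right, median over the members of log2(FPKM + 1) minus the gene's mean over 16 libraries. Points are libraries 1 to 4 from left to right and bars are the mean and SD (n = 4). Library 4 of both dIEC groups and library 1 of f/f TNF are the lowest of their groups in both panels.

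Facts of the whole series that bear on these values are few. Atg16l1 itself ran from 6.74 to 7.63 FPKM in dIEC TNF and 9.60 to 11.1 in f/f TNF libraries, and from 5.20 to 6.41 in dIEC and 8.37 to 9.37 in f/f libraries. The absolute depth is unknown: relative depth, read from the steps between low FPKM values, was 0.914 to 1.04 and median-of-ratios size factors were 0.92 to 1.06. In earlier results of these data, libraries 1 of f/f and 4 of dIEC, each with and without TNF, stood apart. These 4 libraries had the lowest limma sample weights here (0.155 to 0.266, against 0.509 to 3.66 in the other 12). In each of them, the deviation of a member from its mean fell with the GC content of its coding sequence (Spearman rho -0.67 to -0.86 over the 81 members, a description, since members share a library). In the other TNF libraries the deviation rose with GC content, with rho from 0.72 to 0.84. In the other libraries without TNF, rho ran from -0.71 in f/f library 4 to 0.52 in dIEC library 2. Over all genes, rho was -0.42 to -0.72 in the 4 libraries apart and 0.42 to 0.64 in the other TNF libraries. It was -0.30 to 0.12 in the rest, so the pattern was not particular to the members. Members varied more among the libraries of a group than other genes did: the median within-group SD of log2(FPKM + 1) was 0.183 for the 76 members of at least 100 FPKM, and 0.108 for the 738 other genes of that level. All 6 epithelial markers were high, while the immune marker Ptprc stayed at 0.0323 to 0.114 FPKM, Cd3e was at 0 in 8 libraries, and the mesenchymal marker Dcn was at 0 in 13. Of the 7 immune and 8 mesenchymal and endothelial markers, 1 of each list averaged at least 1 FPKM: Lyz2 at 18.8 to 36.9 and Vim at 2.94 to 10.4. Itgam was at 0.672 to 1.09. The summed immune list ran from 24.6 to 29.4 FPKM in dIEC TNF, 32.0 to 38.4 in f/f TNF, 20.7 to 24.1 in dIEC and 27.1 to 32.3 in f/f libraries, and the mesenchymal and endothelial list from 3.82 to 8.04, 3.03 to 9.00, 3.78 to 4.17 and 3.22 to 11.8 in the same groups. Fewer cells of a type and less RNA per cell cannot be told apart in such bulk samples.

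The TNF comparison asked which genes 2 hours of TNF moved in each genotype. Differences were tested with limma on log2(FPKM + 1) over 11097 genes, two-sided, and called at a Benjamini-Hochberg adjusted p under 0.05. On the deposited scale the ribosomal protein mRNAs that changed with TNF were all lower, mostly by small steps, whereas quantile normalization gave calls in both directions. Among dIEC organoids 25 of 81 members (30.9%) were called lower with TNF, where 19.8% of all genes were, and 0 were called higher, where 33.4% of all genes were. Among f/f organoids 32 of 81 (39.5%) were called lower with TNF, where 20.3% of all genes were, and 0 were called higher, where 26.9% of all genes were. All 25 lay among the 32, and both comparisons were fitted with 1 shared spread. The median log2 change over members was -0.17 in dIEC organoids, beside 0.09 over all genes, and -0.22 in f/f organoids, beside 0.05 over all genes, while quantile normalization gave 0.03 and -0.05 over the members. On the deposited scale 58 members in dIEC and 75 in f/f had a negative change. All 4 TNF values lay below all 4 values without TNF for 18 members in dIEC, where 16.3% of all genes showed this, and for 33 in f/f, where 19.9% did.

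These calls depended on how the libraries were scaled. With median-of-ratios scaling, 33 members in dIEC and 41 in f/f were called lower and 0 higher, and they held all of the 25 and 32. Quantile normalization gives all libraries the same set of values. With it, 9 members in dIEC were called lower and 16 higher, and 7 in f/f lower and 6 higher. Members were 46 to 61 of each library's 100 strongest genes, so it can take out part of a shift that they share. The median deviation of members ran from -0.34 to 0.26 over the libraries as deposited, and from -0.15 to 0.08 after it. Quantile results therefore cannot show whether a shared fall is absent. Over all genes the deposited scale called 3702 higher and 2195 lower in dIEC and 2986 and 2249 in f/f. Median-of-ratios scaling called 2773 higher and 2875 lower in dIEC and 2588 and 2713 in f/f, and quantile normalization 2552 and 2939 in dIEC and 2346 and 2844 in f/f. Rpl22, Rpl22l1, Rpl39, Rps27l and Rps7 were called lower in both genotypes on the deposited scale and under quantile normalization. Of the members given in full below, Rpl7 and Rps3a1 were no longer called in either genotype under it, and Rps27a in f/f. The 6 called higher in f/f under it were Rpl14, Rpl28, Rpl3, Rpl7a, Rps13 and Rps2.

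The numbers 1 to 4 in the sample titles were taken as pairs in dIEC, where deviations of same-numbered libraries had correlations of 0.118 to 0.419. With no correlations of differently numbered libraries beside them, these values do not show that the numbers mark pairs. A fit with that replicate block called 32 members lower and 5 higher with TNF in dIEC (Rpl28, Rpl8, Rplp0, Rplp2 and Rps2). Without the 4 libraries apart, 41 members in dIEC and 38 in f/f were called lower, and the same 4 (Rpl28, Rpl8, Rplp0 and Rplp2) were called higher in both. Over all 11097 genes, the fit with the block called 2776 lower and 5086 higher in dIEC. Without the 4 libraries, 2679 were called lower and 5067 higher in dIEC, and 2682 and 4202 in f/f. Those libraries were picked out from these same data, so p-values without them are descriptive. Leaving out dIEC library 4 alone gave 40 members called lower in dIEC. Within numbers, the median change of members from TNF was -0.28, -0.08, -0.23 and -0.02 in dIEC and -0.43, -0.08, -0.31 and -0.08 in f/f.

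**Figure D2:**
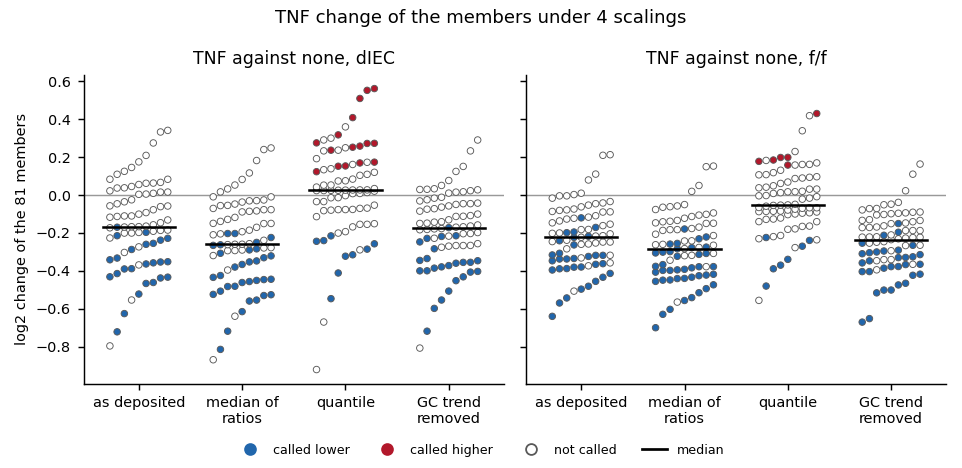
Log2 TNF change of each of the 81 members (points) in dIEC and f/f organoids with 4 treatments of the deposited values; blue was called lower, red higher, open not called, and the line is the median. Calls are all lower on the deposited scale, median-of-ratios scaling and after a GC trend was removed, while quantile normalization has 9 lower and 16 higher in dIEC and 7 lower and 6 higher in f/f.

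Among 60S proteins, the largest falls were of Rpl22l1, the paralog of Rpl22, which takes its place in some ribosomes. Rpl22l1 had 675, 604, 636 and 736 FPKM in dIEC TNF libraries, against 1179, 896, 1278 and 1049 in dIEC libraries. It had 622, 889, 603 and 650 FPKM in f/f TNF libraries, against 1210, 1016, 1050 and 994 in f/f libraries. All TNF values lay below all values without it in both genotypes, and f/f TNF library 2 came closest. Rpl22l1 fell to 60.2% of the mean of dIEC organoids, a log2 change of -0.72 (SE 0.13, limma adjusted p 0.000263), and to 64.8% of the mean of f/f organoids, a log2 change of -0.64 (SE 0.13, limma adjusted p 0.000845). Rpl22 fell as well, with log2 changes of -0.35 in dIEC (SE 0.08, limma adjusted p 0.00222) and -0.35 in f/f (SE 0.08, limma adjusted p 0.00282).

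Rpl39, the member of second highest level, had 2337, 2376, 2194 and 2651 FPKM in dIEC TNF libraries, against 3834, 3048, 4572 and 3426 in dIEC libraries. In f/f TNF libraries it had 2537, 3285, 2378 and 2325 FPKM, against 4226, 3707, 3797 and 3492 in f/f libraries. The groups did not overlap within either genotype. Rpl39 fell to 64.2% in dIEC, a log2 change of -0.63 (SE 0.13, limma adjusted p 0.000817), and to 69.1% in f/f, a log2 change of -0.54 (SE 0.13, limma adjusted p 0.00271). Its paralog Rpl39l stayed under the minimum.

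Rpl7, a 60S protein of the universal core, had 1939, 1847, 1953 and 2099 FPKM in dIEC TNF libraries, against 2892, 2334, 2917 and 2481 in dIEC libraries. It had 2124, 1968, 1834 and 1862 FPKM in f/f TNF libraries, against 2908, 2596, 2634 and 2539 in f/f libraries. No value with TNF reached a value without it. The log2 changes were -0.43 in dIEC (SE 0.08, limma adjusted p 0.000383) and -0.46 in f/f (SE 0.08, limma adjusted p 0.000307). The paralog Rpl7l1, at 48.0 mean FPKM, fell only in f/f by this test, with a log2 change of -0.12 (SE 0.04, limma adjusted p 0.0203) and 0.00 in dIEC. That call was lost under quantile normalization, after the GC trend was removed and without f/f library 2 or f/f TNF library 3. The difference between the genotypes, 0.13, was not called (SE 0.06, limma adjusted p 0.333).

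Other 60S proteins with falls in both genotypes were Rpl36a (log2 changes of -0.47 in dIEC and -0.38 in f/f), Rpl35a (-0.43 and -0.41), Rpl21 (-0.39 and -0.40), Rpl9 (-0.24 and -0.32) and Rpl10 (-0.25 and -0.34), which joins the subunit last. Under quantile normalization Rpl36a, Rpl21, Rpl9 and Rpl10 lost both calls and Rpl35a the one in f/f, with changes of 0.03 in dIEC and -0.02 in f/f for Rpl10. In all, 14 of 45 60S genes were called lower in dIEC and 20 in f/f. Rpl38, known for its part in the translation of Hox mRNAs, changed by -0.29 in dIEC (limma adjusted p 0.0412) and -0.34 in f/f (limma adjusted p 0.0214), with both calls lost under quantile normalization and the one in dIEC lost when 1 of several libraries was left out. Of the 5S partners of MDM2, Rpl5 changed by -0.17 in dIEC (limma adjusted p 0.0348) and -0.20 in f/f (limma adjusted p 0.0197), with SE 0.06. Rpl11 changed by -0.15 and -0.25, with SE 0.13 and adjusted p of 0.35 and 0.118 by limma. Their unlike calls do not show unlike changes. Both Rpl5 calls were lost under quantile normalization, where its changes were 0.02 in dIEC and 0.02 in f/f. Both were also lost after the GC trend was removed. Rpl11 was called lower in f/f, and not in dIEC, after that removal (limma adjusted p 0.0277) and with median-of-ratios scaling (limma adjusted p 0.042).

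Among 40S genes, with the pseudogene Rps4y2 counted, 11 of 33 were called lower in dIEC and 12 in f/f. Rps27a, made as a fusion with ubiquitin, had 1660, 1631, 1590 and 1714 FPKM in dIEC TNF libraries, against 2521, 2058, 2809 and 2157 in dIEC libraries. It had 1721, 2103, 1555 and 1616 FPKM in f/f TNF libraries, against 2594, 2421, 2394 and 2298 in f/f libraries. The groups with and without TNF were separate in each genotype. Its log2 changes were -0.52 in dIEC (SE 0.10, limma adjusted p 0.000605) and -0.48 in f/f (SE 0.10, limma adjusted p 0.00135).

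Rps27l, a paralog of Rps27 known as a p53 target, had 478, 466, 492 and 496 FPKM in dIEC TNF libraries, against 715, 578, 744 and 596 in dIEC libraries. It had 439, 515, 406 and 447 FPKM in f/f TNF libraries, against 689, 630, 641 and 586 in f/f libraries. Its highest value with TNF lay below its lowest value without TNF in both genotypes. Rps27l fell by 0.44 on the log2 scale in dIEC (SE 0.09, limma adjusted p 0.000732) and by 0.50 in f/f (SE 0.09, limma adjusted p 0.000315).

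Rps3a1, a protein near the mRNA exit of the 40S subunit, was the steadiest of the strong falls: 1980, 1950, 2046 and 2039 FPKM in dIEC TNF libraries, against 2934, 2379, 2841 and 2387 in dIEC libraries. It had 2113, 2110, 1940 and 2055 FPKM in f/f TNF libraries, against 2852, 2639, 2690 and 2577 in f/f libraries. No values overlapped within a genotype. The log2 changes were -0.39 in dIEC (SE 0.07, limma adjusted p 0.000328) and -0.39 in f/f (SE 0.07, limma adjusted p 0.000404).

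Rps24 (-0.46 in dIEC and -0.43 in f/f), Rps7 (-0.41 and -0.38), Rps25 (-0.36 and -0.39), Rps4x (-0.26 and -0.33) and Rps3 (-0.21 and -0.26), which also has roles in DNA repair, were called lower in both genotypes. Under quantile normalization Rps25, Rps4x and Rps3 lost both calls and Rps24 the one in f/f, with changes of 0.03 in dIEC for Rps4x and of 0.05 in dIEC and 0.02 in f/f for Rps3. Of these, Rps3 was near the threshold (limma adjusted p 0.0485 in dIEC and 0.021 in f/f) and lost its call without any of several single libraries. Rps6 was called in f/f, at -0.20 (SE 0.05, limma adjusted p 0.00477) but 0.02 under quantile normalization, and had -0.11 in dIEC (SE 0.05, limma adjusted p 0.0786). Rps6 had a difference between genotypes of 0.09 that was not called (limma adjusted p 0.733). Rps14, whose loss causes the anaemia of the 5q- syndrome in humans, had -0.37 in dIEC and -0.36 in f/f with adjusted p of 0.0856 and 0.103 by limma. Rps19, mutated in human Diamond-Blackfan anaemia, had -0.03 and -0.15, and Rpsa, also known as the laminin receptor, had 0.04 and -0.09, with no call.

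**Figure D3:**
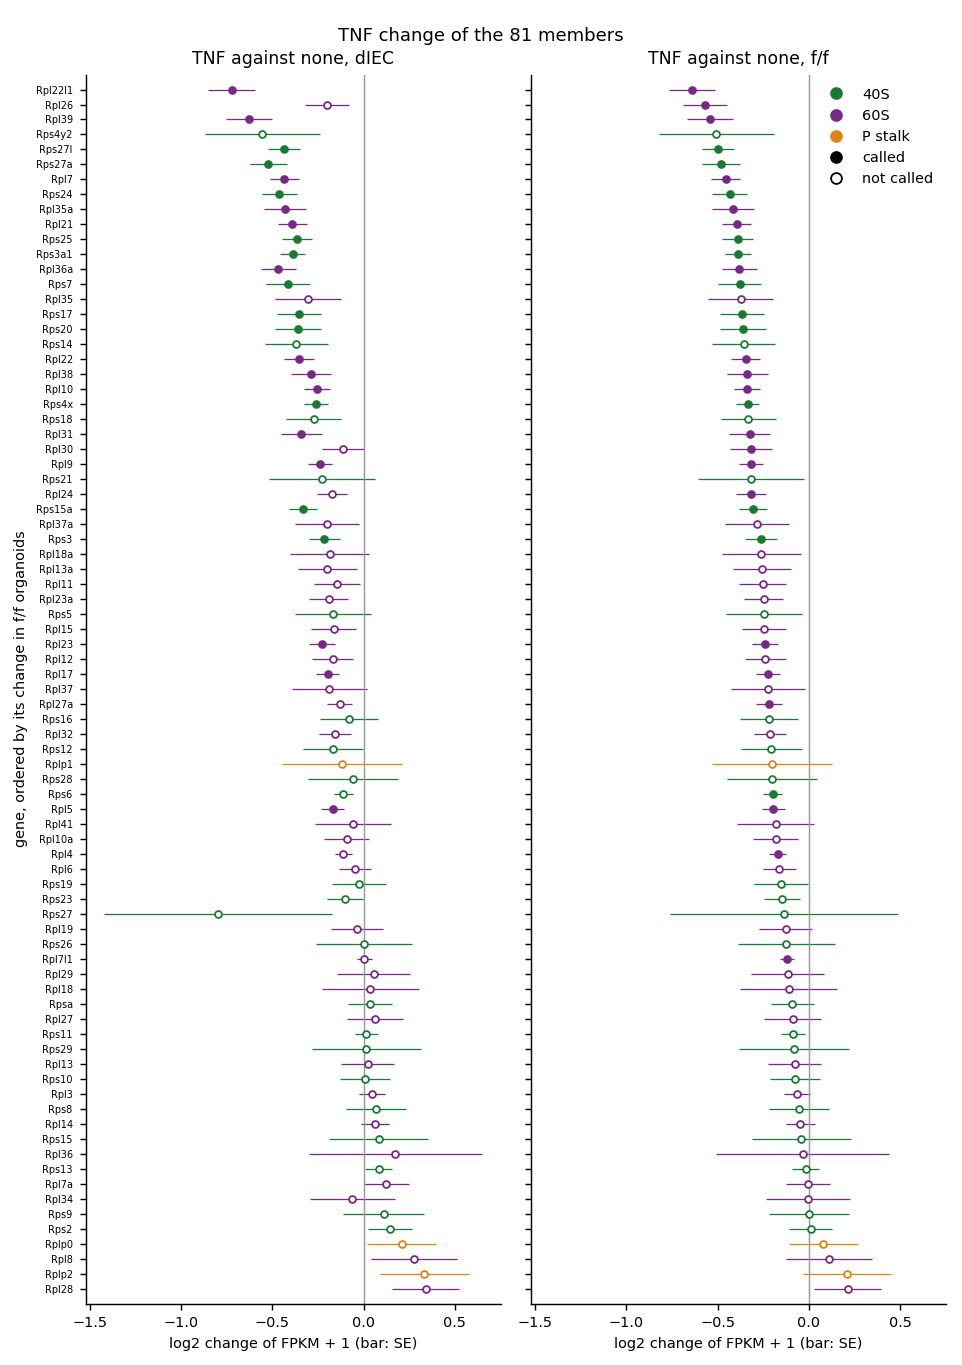
Log2 TNF change of each of the 81 members in dIEC (left) and f/f (right) organoids on the deposited scale, ordered by the change in f/f, with SE bars; filled points were called (25 in dIEC, 32 in f/f, all lower). Under quantile normalization the same genes gave 9 lower and 16 higher calls in dIEC and 7 lower and 6 higher in f/f.

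The P stalk, the arm of the 60S subunit that recruits the elongation factors, was not among the falls. Rplp2 had 1042, 1205, 1075 and 692 FPKM in dIEC TNF libraries, against 844, 883, 901 and 552 in dIEC libraries. It had 581, 1296, 986 and 1162 FPKM in f/f TNF libraries, against 659, 963, 940 and 809 in f/f libraries. The 4 libraries apart held the lowest value of each group, and the groups overlapped. The log2 changes were 0.33 in dIEC (SE 0.24, limma adjusted p 0.263) and 0.21 in f/f (SE 0.24, limma adjusted p 0.505). Rplp2 was called higher without the 4 libraries apart. Its changes were then 0.33 in dIEC (limma adjusted p 0.0103) and 0.34 in f/f (limma adjusted p 0.0112). Those p-values are descriptive, as the libraries left out were picked from the same data.

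Rpl28, a 60S protein with no known counterpart in budding yeast, showed the most positive change. It had 1658, 1744, 1791 and 1238 FPKM in dIEC TNF libraries, against 1443, 1423, 1361 and 890 in dIEC libraries, and 1088, 1790, 1620 and 1764 FPKM in f/f TNF libraries, against 1124, 1472, 1400 and 1332 in f/f libraries. Outside the 4 libraries apart, each value with TNF was above each value without it in the same genotype. The log2 changes over all libraries were 0.34 in dIEC (SE 0.18, limma adjusted p 0.132) and 0.21 in f/f (SE 0.18, limma adjusted p 0.365). Without those libraries Rpl28 was called higher, by 0.30 in dIEC (limma adjusted p 0.000725) and 0.30 in f/f (limma adjusted p 0.00086). Rplp0 (0.21 in dIEC and 0.08 in f/f) and Rpl8 (0.27 and 0.11) behaved alike, and without the 4 libraries they were called higher at 0.19 and 0.24 in dIEC and at 0.19 and 0.23 in f/f. Calls made without those libraries are descriptive, as the libraries were picked from the same data. Rplp1 had -0.12 in dIEC and -0.20 in f/f with no call.

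**Figure D4:**
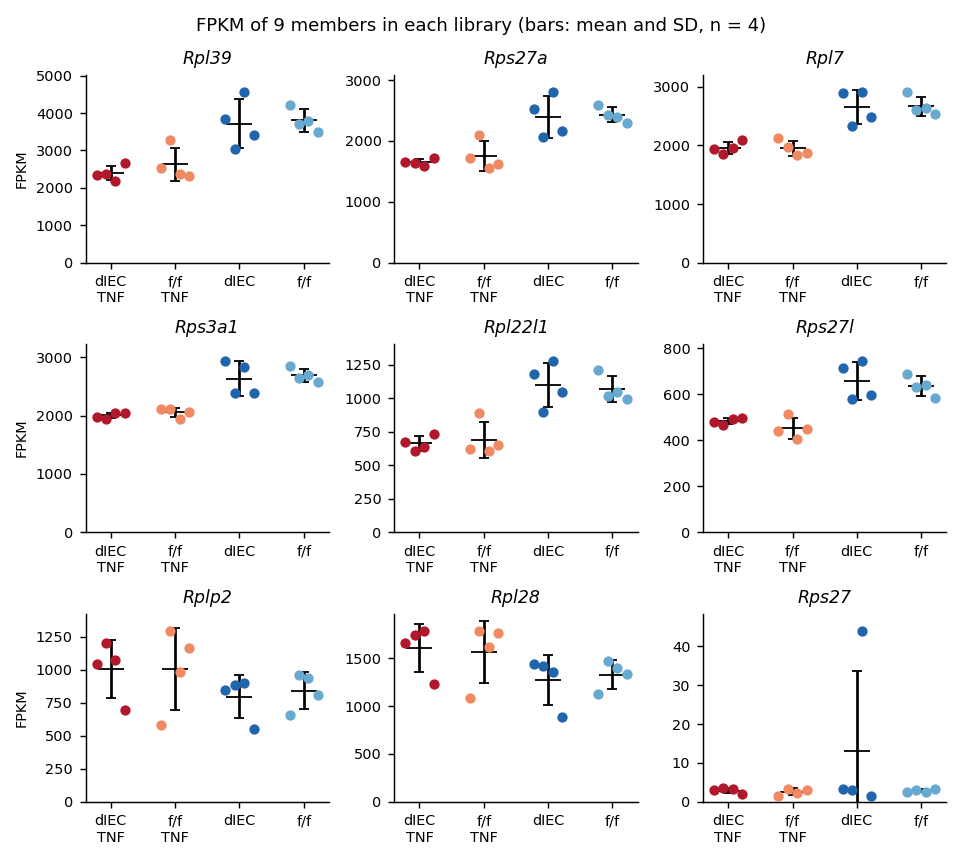
FPKM of 9 members in each library (points, libraries 1 to 4 from left to right) with the mean and SD of each group (n = 4). The TNF groups lie below the untreated ones for Rpl39, Rps27a, Rpl7, Rps3a1, Rpl22l1 and Rps27l, while Rplp2 and Rpl28 are lowest in the 4 libraries apart, and Rps27 has 1 high value, 44.1 FPKM in dIEC library 3.

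TNF changes were ordered along the GC content of the coding sequence. Members were ranked into 3 sets of 27 by it (for Rps4y2 the transcript was used). In the set of lowest GC (39.9 to 50.6%), 21 of 27 were called lower with TNF in dIEC and 26 in f/f. In the middle set (50.6 to 54.6%) the counts were 4 and 6. They were 0 and 0 in the set of highest GC (54.6 to 61.6%). Over all genes, 19.8% were called lower in dIEC and 20.3% in f/f. The share among all genes of like GC content is not given here. Median log2 changes from the lowest to the highest set were -0.35, -0.16 and 0.02 in dIEC and -0.36, -0.22 and -0.11 in f/f. Without the 4 libraries apart, the highest set had 5 called lower and 4 higher in dIEC, and 4 and 4 in f/f. Of all 11097 genes, that fit called 2679 lower and 5067 higher in dIEC, and 2682 and 4202 in f/f. Rpl22l1, with 39.9%, had the lowest GC of all members, Rpl39 had 45.1%, Rplp2 56.8% and Rpl28 56.2%. Spearman's rho between GC and the log2 change was 0.63 in dIEC and 0.59 in f/f over the 81 members, and 0.31 and 0.35 over the 10921 other genes with a transcript. These are descriptions across genes that share the same libraries. After the trend with GC over all genes was taken out of each library, 25 members in dIEC and 32 in f/f were again called lower, of which 18 and 22 were the same genes, and rho over members was 0.46 and 0.33. Of all 11097 genes, 2209 were then called lower in dIEC and 2212 in f/f. The set of lowest GC then held 19 and 19 of the members' calls, the middle set 1 and 6, and the set of highest GC 5 and 7. The part of GC content in the TNF calls was not tested.

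**Figure D5:**
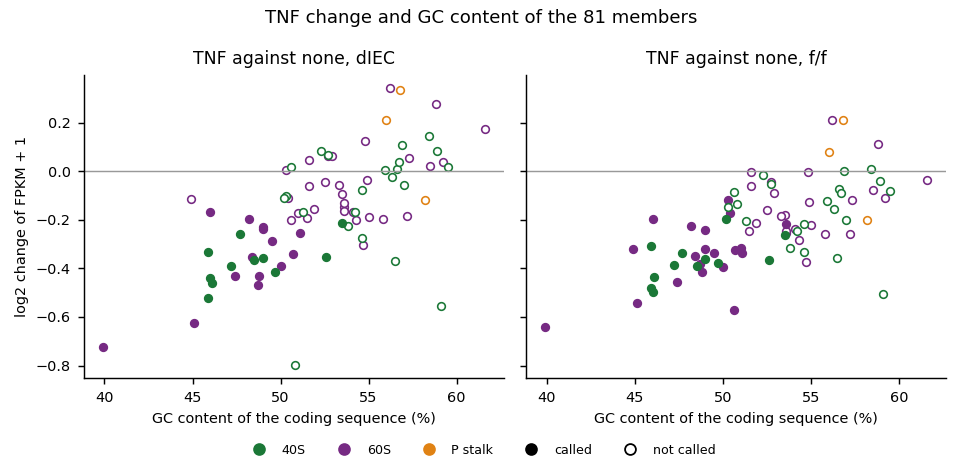
Log2 TNF change on the deposited scale against the GC content of the coding sequence for the 81 members, in dIEC (left) and f/f (right) organoids; filled points were called lower (25 in dIEC, 32 in f/f; 9 and 7 under quantile normalization, with 16 and 6 called higher). Calls lie mostly at low GC content, where 21 of 27 members in dIEC and 26 of 27 in f/f were called. Over all genes, 19.8% were called lower in dIEC and 20.3% in f/f. Without the 4 libraries apart, the 27 members of highest GC had 5 called lower and 4 higher in dIEC, and 4 and 4 in f/f. Of all 11097 genes, that fit called 2679 lower and 5067 higher in dIEC, and 2682 and 4202 in f/f.

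Several members shared their sequence with a pseudogene that took most of the signal. Rpl34 averaged 18.3 FPKM, against 2176 for Rpl34-ps1, which matches 99.4% of its coding sequence. Rpl30 averaged 87.8 FPKM, against 2441 for Gm12191 (99.7%), and Rpl26 216 FPKM, against 2358 for Gm15772 (99.5%). These levels of the named genes are therefore uncertain. All 3 copies fell with TNF in both genotypes, while Rpl30 and Rpl26 were called in f/f and Rpl34 in neither. Gm12191 changed by -0.51 in dIEC (limma adjusted p 0.000249) and -0.49 in f/f (limma adjusted p 0.00042), beside -0.11 and -0.32 for Rpl30. Gm15772 changed by -0.46 in dIEC (limma adjusted p 0.00282) and -0.39 in f/f (limma adjusted p 0.00987), beside -0.20 and -0.57 for Rpl26. Rpl34-ps1 changed by -0.46 in dIEC (limma adjusted p 0.0136) and -0.44 in f/f (limma adjusted p 0.018), beside -0.06 and 0.00 for Rpl34. With all such copies added, the share of summed FPKM was 20.6 ± 1.24% in dIEC TNF, 20.9 ± 1.66% in f/f TNF, 22.2 ± 1.96% in dIEC and 22.9 ± 0.418% in f/f (SD, n = 4 each).

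Atg16l1 deletion was set against f/f at both conditions to ask what the lost gene changes in the epithelium. With TNF, 0 of 81 members were called higher in dIEC, where 3.79% of all genes were, and 0 were called lower, where 2.7% of all genes were, and 1 had an unadjusted p under 0.05. Without TNF, 0 members were called higher, where 1.54% of all genes were, and 0 lower, where 0.784% of all genes were, and 1 had an unadjusted p under 0.05. The median log2 change of members was -0.01 with TNF and -0.09 without it, and 77 of 81 were negative in the second comparison. That median was 0.03 when dIEC library 4 was left out. At these spreads the misses do not show that the genotypes have equal levels.

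Rps4y2 had the most negative genotype difference both with and without TNF. It had 9.60, 12.2, 11.0 and 5.18 FPKM in dIEC TNF libraries, against 9.17, 25.7, 16.8 and 20.4 in f/f TNF libraries. It had 16.7, 16.3, 16.5 and 7.98 FPKM in dIEC libraries, against 17.1, 31.7, 25.6 and 25.8 in f/f libraries. The dIEC values lay below every f/f value without TNF, while f/f library 1 of both conditions was close to the dIEC values. Rps4y2 had log2 changes of -0.83 with TNF (SE 0.32, limma adjusted p 0.157) and -0.78 without it (SE 0.32, limma adjusted p 0.336), which were not called. Without the 4 libraries apart it was called lower in both, with -0.87 (limma adjusted p 0.00152) and -0.71 (limma adjusted p 0.0115). Such p-values are descriptive, as the libraries left out were picked from the same data. Rps4x, the gene on the X chromosome that encodes the 40S protein, had 0.02 with TNF and -0.05 without it.

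Rps27 had 3.19, 2.96, 44.1 and 1.55 FPKM in dIEC libraries, against 2.42, 3.06, 2.57 and 3.26 in f/f libraries, and 1.48 to 3.44 FPKM in the 8 libraries with TNF. Its mean level rests on a single library, and its change of 0.79 was not called (SE 0.62, limma adjusted p 0.833). Rps27 has 4 near-identical genes, of which 0 have values here. Its low level in the other libraries is therefore uncertain as well. Rpl26 had the next largest difference with TNF, 0.23, and was not called (limma adjusted p 0.361). It had 202 ± 15.0 FPKM in dIEC TNF and 173 ± 18.5 in f/f TNF (SD, n = 4 each). Gm15772, the copy that holds most of their shared signal, differed by -0.11 there (limma adjusted p 0.744).

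The difference of the TNF responses, dIEC minus f/f, was called for 0 members, higher or lower, where 1.39% and 1.9% of all genes were called in these directions, and 2 had an unadjusted p under 0.05. The median over members was 0.08, beside 0.03 over all genes, and changed sign to -0.04 without dIEC library 4. The 7 members called with TNF in f/f and not in dIEC (Rpl24, Rpl26, Rpl27a, Rpl30, Rpl4, Rpl7l1 and Rps6) were thus not shown to differ. The largest, Rpl26, had a difference of 0.37 (SE 0.17, limma adjusted p 0.378). Its near-identical copy Gm15772, at 2358 mean FPKM beside 216, changed with TNF by -0.46 in dIEC and -0.39 in f/f. The Rpl26 difference is therefore uncertain.

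Outside the name rule Rpl36al, the paralog of Rpl36a, fell with TNF (-0.34 in dIEC, limma adjusted p 0.000959, and -0.36 in f/f, limma adjusted p 0.000716), while Fau and Gnb2l1 were not called, with 0.14 and 0.08 in dIEC and 0.12 and 0.00 in f/f. Of 46 ribosome biogenesis factors tested, 26 were called higher and 2 lower with TNF in dIEC, and 6 higher and 10 lower in f/f, with medians of 0.23 and 0.05, where 33.4% of all genes were higher and 19.8% lower in dIEC and 26.9% and 20.3% in f/f. Nop56, a core protein of the box C/D particles that guide ribosomal RNA methylation, changed by 0.10 in dIEC and -0.16 in f/f, and its response differed by 0.26 (SE 0.05, limma adjusted p 0.00691). Wdr43, a factor of small subunit assembly, was the other with a called difference, 0.24 (SE 0.06, limma adjusted p 0.0286).

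Of 15 genes of MYC and mTOR control, 7 were called higher and 1 lower with TNF in dIEC, and 7 higher and 0 lower in f/f. Over all genes, 33.4% were called higher and 19.8% lower in dIEC, and 26.9% and 20.3% in f/f. Ddit4, an inhibitor of mTORC1, rose by 1.03 in dIEC (SE 0.08, limma adjusted p 1.05e-07) and 1.08 in f/f (SE 0.08, limma adjusted p 8.75e-08). Larp1, the TOP mRNA binding protein, rose by 0.32 in dIEC (SE 0.07, limma adjusted p 0.00111) and 0.28 in f/f (SE 0.07, limma adjusted p 0.00314). Of 13 genes of ribosome quality control and p53 surveillance, 8 were called higher in dIEC and 5 in f/f with 0 lower, beside 33.4% and 26.9% of all genes called higher. They were led by Cdkn1a, the p53 target that stops the cell cycle, with 1.22 in dIEC (limma adjusted p 5.15e-09) and 1.15 in f/f (limma adjusted p 1.42e-08).

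Of 20 elongation factors and other genes with TOP mRNAs, 6 were called higher and 6 lower in dIEC, and 2 higher and 8 lower in f/f. The shares of all genes were 33.4% higher and 19.8% lower in dIEC, and 26.9% and 20.3% in f/f. Tpt1, a classical TOP mRNA, changed by -0.44 in dIEC (limma adjusted p 7.62e-05) and -0.38 in f/f (limma adjusted p 0.000344), and Pabpc1, the poly(A) binding protein, by 0.35 (limma adjusted p 0.00188) and 0.45 (limma adjusted p 0.000306). Lists of other large complexes gave, beside the 25 and 32 of 81 members, 30 of 76 mitochondrial ribosomal proteins called lower in dIEC and 41 in f/f, 10 and 19 of 34 proteasome subunits, and 32 and 32 of 74 oxidative phosphorylation subunits. Of all genes, 19.8% were called lower in dIEC and 20.3% in f/f. The medians of these lists were -0.07 and -0.19, -0.03 and -0.17, and -0.18 and -0.23 in the same order.

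Cell type markers moved beside the TNF change of the members. Their counts stand against 33.4% of all genes called higher and 19.8% lower with TNF in dIEC, and 26.9% and 20.3% in f/f. Of 8 stem cell markers, 7 were called higher with TNF in each genotype, and their summed level was 1562 to 1685 FPKM in dIEC TNF and 1806 to 1988 in f/f TNF libraries, against 1028 to 1261 in dIEC and 1210 to 1420 in f/f libraries. Of 8 Paneth cell markers, 4 were called higher and 2 lower in dIEC and 4 higher in f/f, with sums of 13779 to 15499 FPKM in dIEC TNF and 17813 to 20841 in f/f TNF, against 14889 to 17656 in dIEC and 18373 to 21305 in f/f libraries. Of 8 enterocyte markers, 2 were called higher and 4 lower in dIEC and 4 higher and 1 lower in f/f, with sums of 6255 to 6941 FPKM in dIEC TNF and 6716 to 7657 in f/f TNF, against 5363 to 6984 in dIEC and 5404 to 5824 in f/f libraries. Of 6 enteroendocrine markers, 5 were called higher in dIEC, and 3 higher and 1 lower in f/f, with sums of 299 to 368 FPKM in dIEC TNF and 216 to 266 in f/f TNF, against 217 to 244 in dIEC and 199 to 233 in f/f libraries. Of 6 epithelial markers, 4 were called higher in dIEC and 3 in f/f, with sums of 1537 to 1996 FPKM in dIEC TNF and 1359 to 1766 in f/f TNF, against 1184 to 1532 in dIEC and 1231 to 1526 in f/f libraries. Goblet markers had 1 higher and 1 lower of 6, tuft markers 1 higher of the 2 that averaged at least 1 FPKM, and Lyz2, the 1 immune marker at that level, was higher, in each genotype. The part of these markers in the members' changes was not tested.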

How the data were processed

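The authors' deposited table gives FPKM per gene for 16 libraries. Per the submitters' processing notes, TopHat2 2.1.1, Cufflinks 2.2.1 and Cuffdiff were used on mm10. No source used here gives counts, depth or strand use. The authors' p-values, group means and summed signal column (the FPKM added over all libraries, as deposited) were not used, and 0 sample columns were left out. The members and lists were chosen with earlier results of these data known. limma 3.58.1 in R 4.3.3 fitted 4 group means with a variance trend to log2(FPKM + 1) of the 11097 rows that averaged 1 FPKM or more (12750 fell below). The 5 contrasts were tested two-sided and Benjamini-Hochberg adjusted over all rows, and changes of low genes are understated on this scale. The test was tried on simulated data. Copies were found with blastn 2.17.0. Correlations of deviations between same-numbered libraries were 0.253, 0.293, 0.118 and 0.419 between dIEC TNF and dIEC, all over 0.1, so the numbers were taken as pairs there, from the data alone. Between f/f TNF and f/f they were 0.321, 0.124, 0.118 and -0.03. Number 3 thus had 0.118 in both genotypes, and without values for differently numbered libraries the rule cannot show pairing. Named members were those with a set role, the 5 largest changes each way, up to 10 called genes of smallest adjusted p per contrast, and the 5 highest and lowest levels.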

Additional observations from a re-analysis of the deposited data

Results flagged for a closer look

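Among 47 named members and the share of summed FPKM, each of the 192 groups of 4 libraries was searched for 1 value far from the other 3, and 15 groups had one. Chance gives such a value in about 1 of 20 groups.

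Library 4 of dIEC held the lowest value in 10 of them, and it is 1 of the 4 libraries that stood apart. There, Rpl36 had 288 FPKM, with the nearest other dIEC library at 783, and Rpl18 had 618, with the nearest at 1173. Rps15 had 794 FPKM against 1565 in the nearest library, Rpl29 had 622 against 975, Rpl8 had 569 against 941 and Rpl28 had 890 against 1361. Rplp2 had 552 FPKM against 844, Rps2 had 1315 against 1736, Rpsa had 760 against 1029 and Rps4y2 had 7.98 against 16.3. The report gives the TNF and genotype results with and without that library. In dIEC TNF library 4, Rpl13a had 927 FPKM, with the nearest at 1233, and Rpl32 had 2535, with the nearest at 2703.

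Rps27 had 44.1 FPKM in dIEC library 3, with the nearest dIEC library at 3.19. In f/f TNF library 2, Rpl22l1 had 889 FPKM, with the nearest at 650. In f/f library 4, Rps3 had 899 FPKM, with the nearest at 961.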

How the results depend on the processing

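The 5 contrasts of members were refitted under 13 other settings and without each library in turn (a fit of the compared samples alone was not made for the difference of responses). Rps4y2 was the 1 member called lower in dIEC without TNF with sample weights, with a replicate block and GC trend removed together, without the 4 libraries apart and with a term for them. It was also the 1 called lower with TNF under these and with the GC trend alone removed, and Rpl26 was the 1 called higher there with sample weights.

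For TNF in f/f, quantile normalization gave 7 lower and 6 higher, sample weights gave 2 higher, the replicate block 1 higher (44 lower), the block with GC trend removed 50 lower, leaving out the 4 libraries 4 higher and a term for them 1 higher. For TNF in dIEC, quantile normalization gave 9 lower, 16 higher and a median of 0.026, sample weights 46 lower and 4 higher, the replicate block 5 higher (32 lower), the block with GC trend removed 1 higher, leaving out the 4 libraries 41 lower and 4 higher, and a term for them 5 higher. Scaling to the summed FPKM of non-members, chosen after seeing the data like the share with pseudogene rows, gave 2 higher there (Rpl28 and Rps13), with 23 lower, and moved the median of all genes to 0.14 in dIEC and 0.11 in f/f. Of 11097 genes in f/f, sample weights called 2957 lower and 4671 higher, the block 2971 and 4365, and the term 2902 and 4261. In dIEC these counts were 2723 and 5419, 2776 and 5086, and 2726 and 5026. Leaving out the 4 libraries gave 2682 and 4202 in f/f and 2679 and 5067 in dIEC. Scaling to non-members called 1574 lower and 4418 higher in dIEC. By the rule of all correlations over 0.1, the f/f libraries and the genotypes were not taken as pairs. That rule cannot show whether the numbers mark pairs.

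Leaving out each library in turn gave 18 to 40 lower and 0 to 1 higher for TNF in dIEC, 23 to 40 lower in f/f, 0 to 1 lower for dIEC against f/f with TNF (without f/f TNF library 1, Rps4y2), and 0 called members in the other counts. The medians ranged from -0.27 to -0.08 for TNF in dIEC, -0.31 to -0.16 in f/f, -0.09 to 0.07 for dIEC against f/f with TNF, -0.14 to 0.03 without it, and -0.04 to 0.15 for the difference.

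Of 103 changes of named members, 8 turned round with a call on 1 side, all under quantile normalization: Rps6 (0.0197), Rpl5 (0.0169), Rps3 (0.0174) and Rpl3 (0.178, called only there) for TNF in f/f, and Rpl5 (0.0203), Rps3 (0.0528), Rpl10 (0.0264) and Rps4x (0.0339) in dIEC. The cause of these shifts was not tested. Depth is unknown, 4 libraries a group limit what small changes can be called, and members with near-identical copies have uncertain levels.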
